A study of Papio anubis with 60 samples.

Results

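Chromosome 19 of the olive baboon, Papio anubis, was described through its histone mark peaks in pluripotent cells. All peaks whose first column read chr19 were taken from 8 deposited peak lists, which gave 49665 peaks of 2116963 in all, and 1806320 lay on the other 19 autosomes. The lists cover 4 marks (H3K4me3, H3K27ac, H3K27me3 and H3K9me3) in embryonic stem cells (ESC, lines B4 and B15) and in induced pluripotent stem cells (iPSC, lines 160-2 and M14939#3, cells reprogrammed to pluripotency). All 4 lines were grown on feeder cells in the same medium without any treatment named in the labels, and each library used 50000 cells, with micrococcal nuclease to fragment the chromatin. Each cell type and mark had 6 libraries, 3 from each of 2 lines, and 1 list was analysed for each. There are therefore no replicates of a list, and cell type and cell line cannot be told apart. No expression values were used, so the pluripotent identity of the lines was not checked against marker genes. Differences between the cell types are differences between 2 lists, given with no test, and intervals cover counting error only.

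H3K4me3 lies on active and poised gene starts, H3K27ac on active gene starts and enhancers, H3K27me3 on chromatin held by Polycomb complexes, and H3K9me3 on constitutive heterochromatin, silenced transposable elements and certain gene families. In human cells the chromosome numbered 19 is known for a high gene density and for arrays of KRAB zinc finger genes, whose bodies carry H3K9me3 laid down with the co-repressor TRIM28 and the methyltransferase SETDB1. Whether chromosome 19 of these lists is the counterpart of the human one was not tested. Its furthest peak ended at 51.4 Mb, whereas in the gene table at hand, of the assembly Panubis1.0, the chromosome numbered 19 reached 72.1 Mb and that numbered 20 reached 49.9 Mb. For that reason no peak was assigned to a gene, and regions are named by their coordinates.

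Peaks covered more of chromosome 19 than of any other autosome for H3K4me3, H3K9me3 and, in iPSC, H3K27me3. H3K9me3 covered 16.2% of it in the ESC list, where the other autosomes had 8.29% ± 0.625 (SD over 19 chromosomes), and 15.6% in the iPSC list, where they had 6.88% ± 1.62, and the next highest were chromosome 8 in ESC (9.45%) and chromosome 20 in iPSC (11.8%). H3K4me3, the mark of gene starts, covered 10.2% in ESC and 9.28% in iPSC, against 5.28% ± 1.33 and 5.48% ± 1.19. H3K27me3 covered 4.61% in ESC and 9.24% in iPSC, against 2.13% ± 0.781 and 3.48% ± 1.02, which placed chromosome 19 just below chromosome 16 (4.62%) in ESC and highest in iPSC. H3K27ac stood closest to the other autosomes. It covered 5.24% in ESC, rank 3 of 20, and 2.16% in iPSC, rank 7 of 20, against 4.01% ± 0.666 and 2.10% ± 0.239. In number of H3K27ac peaks per Mb, chromosome 19 had rank 4 in ESC with 158 and was lowest of the 20 in iPSC with 72.6. Its H3K9me3 and H3K4me3 peaks were also wider than elsewhere: the median was 631 bp in ESC and 662 bp in iPSC for H3K9me3, against 524 and 519 bp on the other autosomes, and 343 and 366 bp for H3K4me3, against 274 and 289 bp. The median fold enrichment, a value of the authors' peak caller, differed little, at 2.59 and 2.54 for H3K9me3 in ESC on chromosome 19 and elsewhere.

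**Figure D1:**
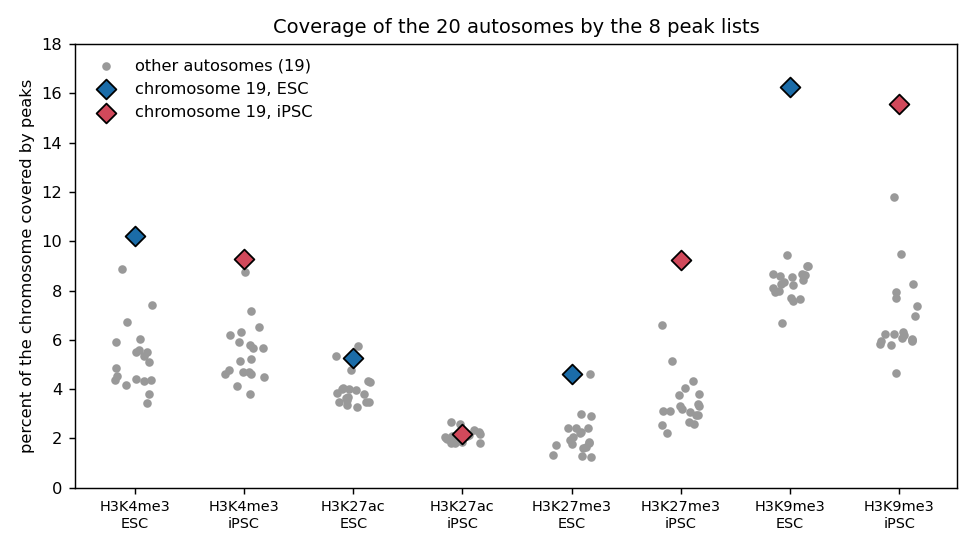
Percent of each of the 20 autosomes covered by peaks (vertical axis) in each of the 8 lists (horizontal axis), with diamonds for chromosome 19 and grey points for the other 19. The diamonds of H3K9me3 (16.2% and 15.6%) and H3K4me3 (10.2% and 9.28%) lie above every grey point, while that of iPSC H3K27ac (2.16%) lies among them.

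The chromosome was divided into 514 bins of 100 kb to find where H3K9me3 was concentrated. A bin was called rich where the mean of its ESC and iPSC H3K9me3 coverage was at least 25%. Of the 514 bins, 111 (21.6%) were rich, and over the other autosomes 2.56% were. Bins with at least 25% in both lists numbered 88 (17.1%), against 1.20% over the other autosomes, where chromosome 20 had the largest share, 2.08%. Rich bins with at most 1 other bin between them were joined, and clusters of at least 300 kb were kept. This gave 12 clusters of 300 to 4800 kb, 10.5 Mb in all, or 20.4% of the chromosome. By the same rule 1.92% of the other autosomes lay in 60 clusters, from 0% on chromosomes 2, 17 and 18 to 9.72% on chromosome 20. Chromosome 19 makes up 1.98% of the autosomal length and held 17.7% of the cluster length. Since H3K9me3 chose the clusters, its level in them is a description. They held 59.7% of the H3K9me3 base pairs of the chromosome in ESC and 71.3% in iPSC.

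Away from the clusters, H3K9me3 was near the level of the other autosomes, while H3K4me3 and H3K27me3 were above theirs. Since H3K9me3 chose the clusters, its level outside them is limited by that choice and is a description. Outside its clusters chromosome 19 had 8.21% H3K9me3 in ESC and 5.62% in iPSC, against 7.79% ± 0.598 and 5.67% ± 0.497 outside the clusters of the other autosomes, ranks 7 and 14 of 20. For H3K4me3 it was highest in both lists, with 11.5% and 10.8% against 5.33% ± 1.36 and 5.57% ± 1.23. For H3K27me3 it was highest too, with 5.51% in ESC and 6.11% in iPSC against 2.15% ± 0.796 and 2.93% ± 0.378. H3K27ac covered 6.27% in ESC, the highest of the 20, and 2.59% in iPSC, the second highest, against 4.06% ± 0.709 and 2.15% ± 0.260.

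Coordinates are those of the deposited lists; no source used here gives their build. The longest cluster, chr19:19300001-24100000, had 47.6% H3K9me3 in ESC and 65.5% in iPSC. It was also the one with the largest excess in iPSC, 17.9 percentage points. The next longest, chr19:30800001-32100000 (1300 kb), had 35.3% and 35.8%. The clusters chr19:44900001-45600000 (700 kb) and chr19:10700001-11300000 (600 kb) had 35.8% and 33.8%, and 35.2% and 30.1%. In these 3 the difference, iPSC minus ESC, ran from -5.14 to 0.442 points. Another of 600 kb, chr19:49400001-50000000, was denser, with 69.5% and 70.6%. The densest was chr19:47600001-48000000, with 78.0% in ESC and 74.5% in iPSC. The lowest difference, -7.69 points, was that of chr19:29300001-29600000, with 28.5% and 20.9%. The other 5 clusters were chr19:8100001-8500000 (51.2% and 56.4%), chr19:36900001-37200000 (65.2% and 61.7%), chr19:46200001-46500000 (43.6% and 36.1%), chr19:48700001-49100000 (65.9% and 59.4%) and chr19:50700001-51100000 (42.9% and 35.7%). Thus 5 of the 12 lay beyond 46.2 Mb.

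H3K4me3 and H3K27ac were sparse in the clusters, and to different degrees. H3K4me3 covered 5.05% of them in ESC and 3.36% in iPSC, against 11.5% and 10.8% outside, a ratio of 0.438 and 0.311. H3K27ac covered 1.26% and 0.479%, against 6.27% and 2.59%, a ratio of 0.201 and 0.185. H3K27ac was below its outside level in 12 of 12 clusters in both lists, and H3K4me3 in 11 of 12. The exception was chr19:46200001-46500000, with 13.8% H3K4me3 in ESC and 11.1% in iPSC. Over the summed clusters of the other autosomes the ratio was 0.708 and 0.405 for H3K4me3 and 0.437 and 0.137 for H3K27ac. Those clusters had 32.8% H3K9me3 in ESC and 61.4% in iPSC, against 47.5% and 54.4% in those of chromosome 19. The sets are thus unlike, above all in ESC. Over the 16 other autosomes that had clusters the ratio ranged from 0.0504 to 2.63 for H3K4me3 in ESC, and chromosome 19 lay within that range.

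The clusters were of unlike content. At one end, chr19:47600001-48000000 had 0.218% H3K4me3 in ESC, 0.0415% in iPSC and 1 H3K27ac peak over both lists, in ESC. chr19:36900001-37200000 had 2.28% and 2.47% H3K4me3 and no H3K27ac peak in either list. At the other end, chr19:50700001-51100000 had 9.99% and 7.07% H3K4me3, 2.99% and 1.70% H3K27ac, and 10 of the H3K4me3 domains described below. Denser clusters had less H3K4me3: over the 12 clusters, H3K9me3 and H3K4me3 coverage had a Spearman's rho of -0.685 in ESC and -0.839 in iPSC. Over the 514 bins the rho with H3K9me3 of the same list was -0.487 in ESC and -0.578 in iPSC for H3K4me3, and -0.709 and -0.656 for H3K27ac. On the other autosomes it ran from -0.244 to 0.136 and from -0.412 to 0.0304 for H3K4me3, and from -0.420 to -0.00683 and from -0.516 to -0.0776 for H3K27ac. These are descriptions: the bins neighbour each other and come from the same lists. No bin of the chromosome was without a peak.

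**Figure D2:**
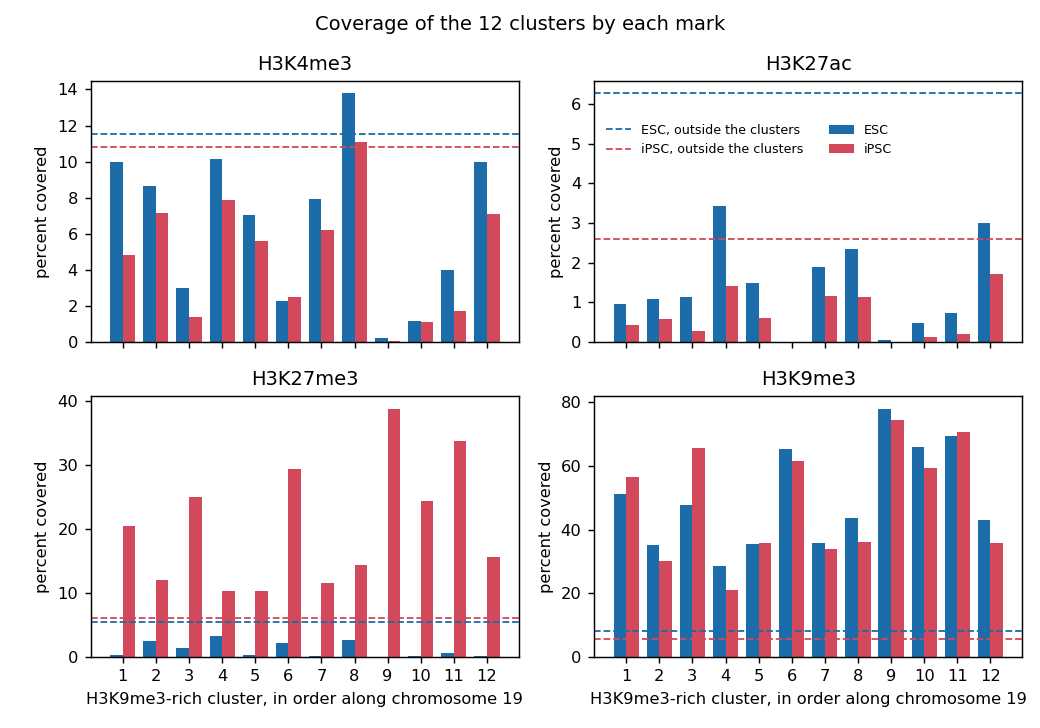
Percent of each of the 12 clusters covered by each mark (vertical axes, with different scales) in ESC and iPSC, in order along the chromosome (horizontal axes), with dashed lines for the level outside the clusters. H3K27me3 is above its outside level of 6.11% in 12 of 12 clusters in iPSC and below its outside level of 5.51% in 12 of 12 in ESC.

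H3K27me3, the Polycomb mark, was sparse in the clusters in the ESC list and abundant in the iPSC list. It covered 1.08% of the clusters in ESC, 0.196 times its outside level, and 21.5% in iPSC, 3.51 times its outside level. The 12 clusters ranged from 0% to 3.20% in ESC and from 10.3% to 38.9% in iPSC, so every cluster was higher in iPSC. Within the clusters 151 H3K27me3 peaks were called in ESC and 2807 in iPSC. The clusters held 4.79% of the H3K27me3 base pairs of the chromosome in ESC and 47.4% in iPSC. In strength the iPSC peaks in the clusters were like the rest of their list on this chromosome: 64.6% had a −log10 q of at least 2, against 56.3% outside, and their median fold was 2.81, against 2.70. On the other autosomes the clusters had 1.93% in ESC, 0.952 times the outside level, and 28.1% in iPSC, 9.80 times. Those clusters had less H3K9me3 in ESC than in iPSC, as given above.

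In iPSC the H3K27me3 of the clusters lay on H3K9me3 sequence. On the clusters' sequence, 96.3% of its base pairs were also covered by iPSC H3K9me3, a mark on 54.4% of that sequence. In ESC 18.6% of the small H3K27me3 content lay in ESC H3K9me3, which covered 47.5%. Outside the clusters the shares were 36.3% in iPSC and 10.7% in ESC, where H3K9me3 covered 5.62% and 8.21%. The overlap in iPSC was not particular to chromosome 19. On the other autosomes the iPSC share was 94.4% in clusters and 58.3% outside, where H3K9me3 covered 61.4% and 5.72%. Over the 12 clusters iPSC H3K27me3 and H3K9me3 coverage had a Spearman's rho of 0.902. A section of the longest cluster did not follow this relation. At chr19:21100001-22000000, picked after its values were seen, H3K9me3 covered 70.3% in ESC and 60.5% in iPSC, while iPSC H3K27me3 covered 3.99%. In the adjoining chr19:22000001-22600000 it covered 34.9%, with H3K9me3 at 79.6% and 79.1%. Neither section held an H3K27ac peak or an H3K4me3 domain in either list.

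H3K9me3 formed long domains inside the clusters and short ones outside. Since H3K9me3 chose the clusters, this contrast follows in part from the choice and is a description. With regions joined within 3 kb, the clusters held 386 domains in ESC and 285 in iPSC, with median widths of 4172 and 6984 bp, against 885 and 698.5 bp outside. The order of the lists depended on the joining: with overlapping peaks alone joined, the clusters held 257 domains per Mb in ESC and 299 in iPSC, with medians of 0.912 and 0.943 kb. Domains of at least 10 kb made up 90.4% of the domain length in the clusters in ESC and 95.4% in iPSC, against 32.6% and 27.9% outside. The longest in ESC spanned 527 kb at chr19:22056349-22583746 and was covered to 84.3% in ESC and 81.7% in iPSC. The next in ESC, 365 kb at chr19:48702672-49068145 and 291 kb at chr19:19823256-20114273, were covered to 70.8% and 68.8% in ESC and to 64.3% and 67.1% in iPSC. None of these 3 had an H3K27ac peak in either list or an ESC H3K27me3 peak, and iPSC H3K27me3 covered 36.4%, 26.1% and 28.6% of them. The longest iPSC domain, 684 kb at chr19:23163587-23848073, was covered by H3K9me3 to 78.2% in iPSC and 12.3% in ESC.

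Gene starts could not be placed, so domains of H3K4me3 were used in their stead: peaks of both lists with a −log10 q of at least 5 (here called firm) were joined within 1 kb and kept from 2 kb. The clusters held 92 such domains, 8.76 per Mb, and the rest of the chromosome 961, or 23.5 per Mb. On the other autosomes there were 4.88 and 9.67 per Mb. Those in clusters were somewhat narrower, with a median of 2714 bp against 3063 bp. A domain was counted as bearing a mark where a firm peak overlapped it, with a −log10 q of at least 2 for H3K27me3 and H3K9me3. Firm H3K4me3 was present on 92 of 92 in ESC and on 86 in iPSC. The definition pooled both lists, so a high count in each follows in part from it.

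In the clusters H3K4me3 lay on H3K9me3 sequence less than its extent gives: 39.3% of the H3K4me3 base pairs in ESC and 42.6% in iPSC were covered by H3K9me3, which covered 47.5% and 54.4% of the clusters. Since H3K9me3 chose the clusters, the shares of H3K4me3 domains that bear it, higher than outside, are a description. In ESC, 47.8% bore firm H3K9me3 (95% Wilson interval 37.9 to 57.9) and in iPSC 57.6% did (47.4 to 67.2), against 16.4% (14.2 to 18.9) and 12.1% (10.2 to 14.3) outside. With the stricter −log10 q limits of 10 and 3 these were 14.8% and 24.1% inside, and 10.01% and 6.06% outside. An H3K9me3 region lay within 5 kb of 79 of the 92 in ESC and of 87 in iPSC, against 52.7% and 44.9% of those outside. Firm H3K27ac, the sign of activity, lay on 59.8% (49.6 to 69.2) in ESC and 42.4% (32.8 to 52.6) in iPSC, against 65.7% (62.6 to 68.6) and 48.3% (45.1 to 51.4) outside, so these intervals overlap. With the stricter limits the order turned in both lists, to 61.1% and 48.1% inside against 49.9% and 31.0% outside. In ESC, 36 of the 92 (39.1%) bore H3K4me3 and H3K27ac with neither repressive mark, close to the 41.1% outside, and in iPSC 19 (20.7%) against 29.1%. Averaged over the 79 domains of the clusters that lie off the stretch described below, H3K9me3 covered 38.2% of the sequence within 1 kb of the domain's centre in ESC and 38.9% in iPSC, and 36.7% and 35.2% at 20 to 50 kb.

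Bivalent domains bear H3K4me3 and H3K27me3 together and are typical of developmental genes in pluripotent cells. Here the word means only that firm peaks of both marks lay on a domain. At the main limits their share in the clusters differed between the lists. In ESC 15.2% of the domains in clusters were bivalent (9.29 to 23.9), against 42.0% outside (39.0 to 45.2). In iPSC 57.6% were (47.4 to 67.2), against 45.5% outside (42.4 to 48.6). In the clusters of the other autosomes, which had less H3K9me3 in ESC than in iPSC, 38.7% were bivalent in ESC and 63.0% in iPSC. As given above, 96.3% of the iPSC H3K27me3 base pairs in the clusters of chromosome 19 were also covered by H3K9me3. Of the 92 domains, 42 (45.7%) had firm H3K27me3 in iPSC and no H3K27me3 peak in ESC, and 1 (1.09%) the converse. Outside the clusters 8.43% and 4.06% of the domains did, and in the clusters of the other autosomes 30.25% and 3.36%. Off the stretch of 15 bins described below, the bivalent shares in clusters were 12.7% of 79 domains in ESC and 53.2% in iPSC. The difference between the lists depended on peak strength. With −log10 q limits of 10 and 3 the clusters held 54 domains, of which 16.7% were bivalent in ESC and 20.4% in iPSC. At these limits the lists were thus close. Outside, 34.5% in ESC and 31.5% in iPSC were bivalent, so in iPSC the order of inside and outside turned. Within 1 kb of the centres of the 79 domains, H3K27me3 covered 5.02% in ESC and 33.4% in iPSC, and at 20 to 50 kb 1.22% and 12.9%.

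**Figure D3:**
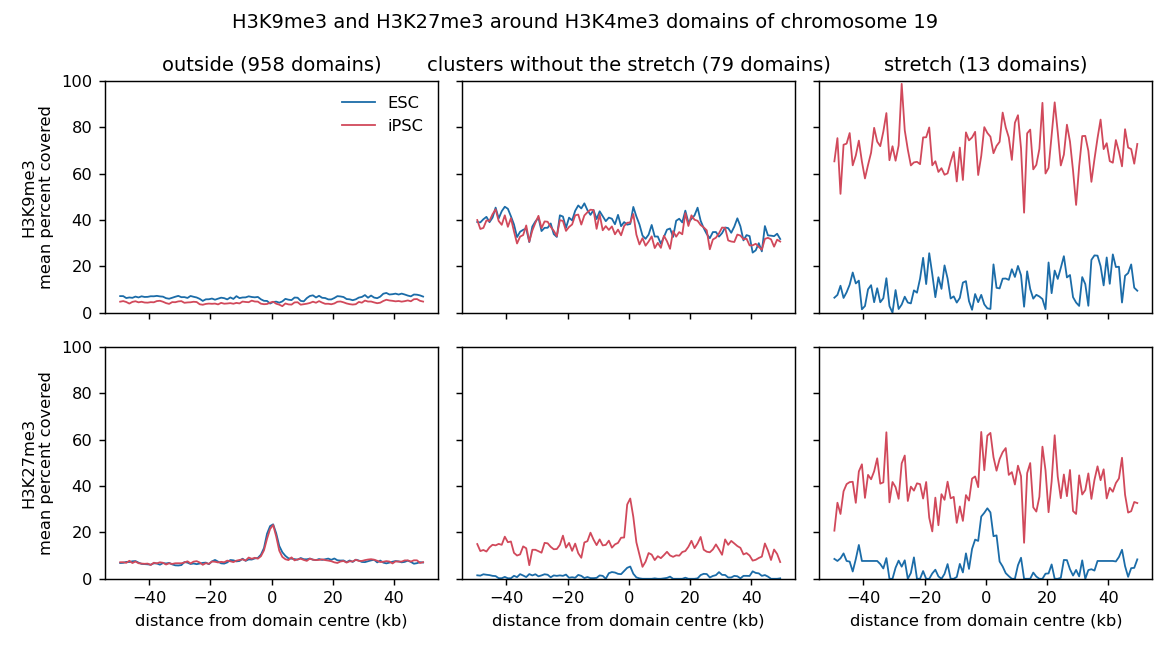
Mean percent of sequence covered by H3K9me3 (upper row) and H3K27me3 (lower row) in ESC and iPSC against the distance in kb from the centre of H3K4me3 domains, outside the clusters, in the clusters without the stretch of 15 bins, and in that stretch. Outside, the lists have near-equal H3K27me3 summits, 23.1% and 22.4% within 1 kb, while in the clusters the iPSC summit of 33.4% stands over an ESC summit of 5.02%.

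The widest H3K4me3 domains differed inside and outside the clusters. Outside, the widest were at chr19:36178878-36208797 (29920 bp), with 87.5% H3K27me3 in ESC and 90.2% in iPSC, at chr19:11792857-11820467 (27611 bp), with 100% in both, and at chr19:42715825-42735845 (20021 bp), with 39.0% and 22.5%. Inside, the widest, chr19:46396833-46406019 (9187 bp), bore H3K27ac over 20.4% in ESC and 12.6% in iPSC and little H3K27me3 (1.60% and 13.6%). The next, chr19:8333148-8340609 (7462 bp), was covered by H3K9me3 fully in both lists, and by H3K27me3 to 87.4% in iPSC and not at all in ESC. The third, chr19:23052495-23059527 (7033 bp), lay in the stretch described next. It had H3K27ac over 52.0% and no H3K9me3 in ESC, and H3K27ac over 7.04% and H3K9me3 over 92.4% in iPSC.

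Between the cell types, H3K9me3 of most single bins was somewhat higher in ESC, while the largest differences were mostly higher in iPSC. Of the 514 bins, 442 had more in ESC and 72 more in iPSC, and the medians outside the clusters were 5.42% and 3.45%, too low for a difference of 20 points in most bins there. The share of such bins on the other autosomes is not given here. Mean H3K9me3 coverage there was also higher in ESC, 8.29% against 6.88%. The ESC list of H3K9me3 held 349276 peaks and the iPSC list 251833, so this direction is not particular to chromosome 19. The ESC and iPSC values had a Spearman's rho of 0.943 over the 514 bins, and from 0.864 to 0.935 on the other autosomes. In 17 bins (3.31%) the iPSC list exceeded the ESC list by 20 points or more, against 1.23% over the other autosomes. Chromosomes 20 (8.32%) and 10 (6.02%) had larger shares of such bins, and chromosome 8 (3.28%) a like one. In 3 bins (0.584%) the ESC list exceeded the iPSC list as far, against 0.126%. The 17 bins all lay in the longest cluster. Of these, 15 formed an unbroken stretch at chr19:22600001-24100000, and single bins lay at chr19:20300001-20400000 (22.4% in ESC and 58.1% in iPSC) and chr19:20600001-20700000 (11.5% and 47.2%). All 17 were below the richness limit of 25% in ESC, with 5.82% to 22.9% in the stretch. They were rich by the mean of the lists only through their iPSC values. Their place in a cluster thus follows in part from the excess that called them. Of the 3 bins higher in ESC, 2 adjoined at chr19:35300001-35500000, outside the clusters, with 46.0% in ESC and 12.3% in iPSC, no H3K27ac, and H3K27me3 at 13.9% and 10.03%. The other, chr19:21100001-21200000, had 72.1% and 40.8%. Among clusters, 11 of 12 differed by less than 10 points between the lists, against 31 of 60 on the other autosomes, where 19 were at least 20 points higher in iPSC.

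**Figure D4:**
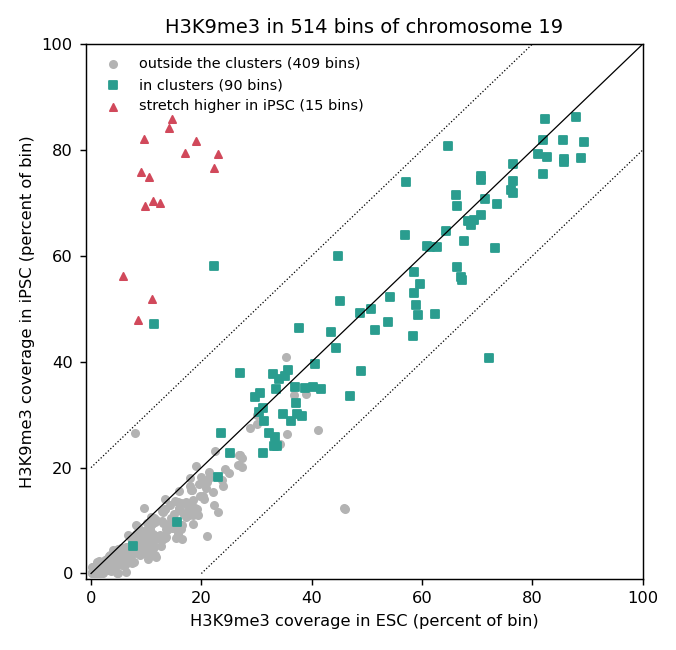
H3K9me3 coverage of the 514 bins of chromosome 19 in ESC (horizontal axis) and iPSC (vertical axis), in percent, with a solid line of equality and dotted lines at a difference of 20 points. Grey points lie outside the clusters, squares in them, and the 15 triangles, the stretch at chr19:22600001-24100000, range from 5.82% to 22.9% in ESC and from 47.8% to 85.9% in iPSC.

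In the stretch of 15 bins, 1.5 Mb long, both repressive marks covered more in iPSC and both active marks more in ESC. Its bins ranged from 5.82% to 22.9% H3K9me3 in ESC and from 47.8% to 85.9% in iPSC, so the lists did not overlap there, as the limit of 20 points requires in part. H3K9me3 covered 13.2% of it in ESC and 72.4% in iPSC, and H3K27me3 4.18% and 40.6%. H3K4me3 covered 6.89% and 2.42%, and H3K27ac 3.03% and 0.623%. In the rest of the clusters H3K27me3, H3K4me3 and H3K27ac differed in these same directions, as given below. The edges of the stretch were set by the limit of 20 points and were graded. The bin before the stretch had 64.7% in ESC and 80.8% in iPSC. The last 3 bins of it had 56.2%, 47.8% and 51.9% in iPSC, and the bin after it 8.04% in ESC and 26.4% in iPSC. In the 500 kb before it H3K9me3 covered 81.9% in ESC and 81.6% in iPSC, and in the 500 kb after it 3.34% and 6.40%. Before it there was no H3K27ac peak in either list, and after it H3K27ac covered 4.88% and 1.70%, and H3K4me3 11.1% and 8.82%. The bins with the largest excess of iPSC H3K9me3 were chr19:23500001-23600000 (9.63% and 82.1%), chr19:23600001-23700000 (14.7% and 85.9%) and chr19:23200001-23300000 (14.2% and 84.2%). The first and second of these also had the largest excess of iPSC H3K27me3, 52.8% against 3.14% and 60.3% against 4.35%. The next largest for H3K27me3 was in the densest cluster, at chr19:47700001-47800000, with 0% in ESC and 48.7% in iPSC, where H3K9me3 was 85.6% and 81.9%.

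**Figure D5:**
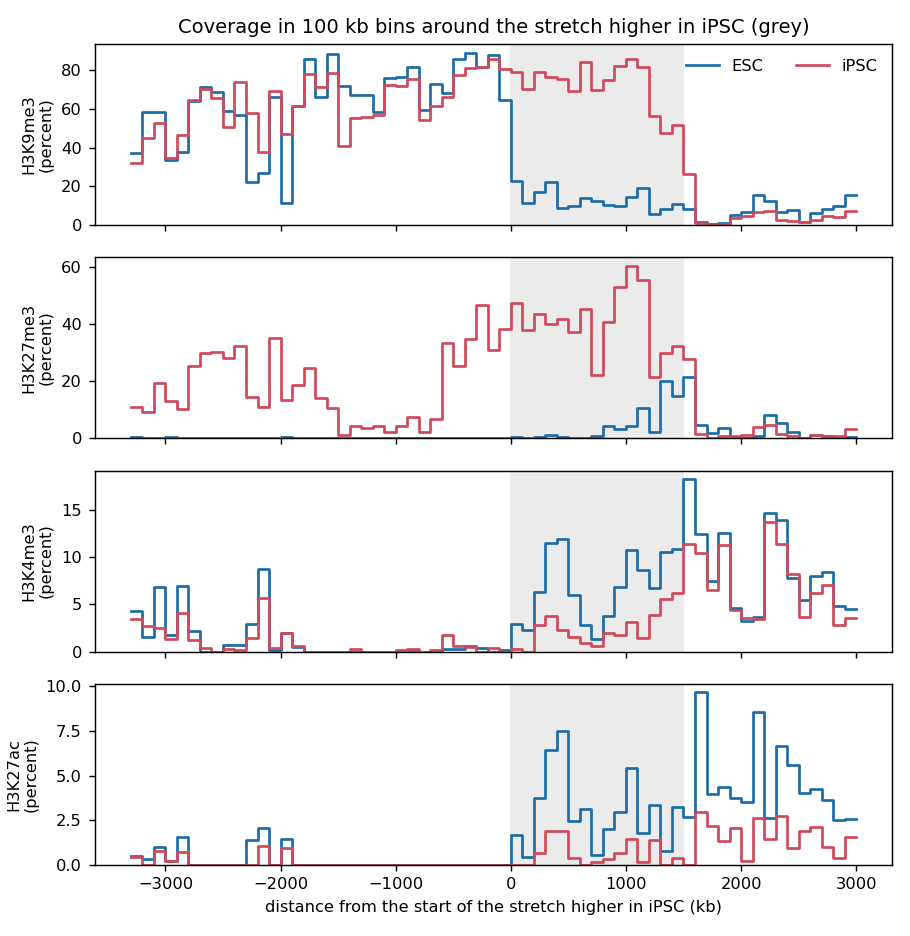
Percent of each 100 kb bin covered by H3K9me3, H3K27me3, H3K4me3 and H3K27ac (vertical axes, with different scales) in ESC and iPSC against the distance in kb from the start of the stretch, which is shaded. Left of the shaded part H3K9me3 is high in both lists, inside it 13.2% in ESC and 72.4% in iPSC, and from the second bin right of it low in both, the first having 8.04% and 26.4%.

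The stretch held 13 H3K4me3 domains, and 11 of them kept a firm H3K4me3 peak in iPSC. Firm H3K27ac lay on 9 in ESC and 5 in iPSC, firm H3K27me3 on 4 and 13, and firm H3K9me3 on 3 and 12. In ESC 6 of the 13 bore H3K4me3 and H3K27ac with neither repressive mark, and in iPSC 0 did (95% Wilson interval 0% to 22.8%). The interval takes these neighbouring domains as independent, which they need not be. The stretch was chosen by its excess of iPSC H3K9me3, so the counts that use H3K9me3 follow in part from that choice. H3K4me3 covered less of each of the 13 in iPSC: at chr19:22914889-22918444, H3K4me3 covered 86.6% in ESC and 26.97% in iPSC, H3K27ac 73.0% and 41.7%, and H3K9me3 0% and 100%. At chr19:23086275-23089680 H3K4me3 covered 43.0% and 5.31%, H3K27ac 10.6% and 0%, and H3K9me3 0% and 100%. The last 3 along the stretch were fully covered by H3K27me3 in ESC. In iPSC H3K27me3 covered 29.3%, 61.4% and 100% of them, and H3K9me3 37.5%, 7.53% and 98.8%. The last, at chr19:24014559-24018497, had H3K27me3 over 100% in both lists and H3K9me3 over 0% in ESC. These domains were picked after their values were seen.

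The rest of the clusters had like H3K9me3 in both lists and an H3K27me3 difference of its own. With the stretch left out, the clusters had 53.2% H3K9me3 in ESC and 51.4% in iPSC, H3K27me3 0.564% and 18.3%, H3K4me3 4.75% and 3.51%, and H3K27ac 0.964% and 0.455%. Without it, ESC H3K27me3 in the clusters was 0.102 times the level outside, in place of 0.196. On other autosomes, 13 of 19 had at least 1 bin with H3K9me3 20 points higher in iPSC, and the longest unbroken stretches were 40 bins on chromosome 8 and 34 on chromosome 20.

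For the other marks, bins differed mainly in 1 direction each. In 87 bins (16.9%) iPSC H3K27me3 exceeded ESC H3K27me3 by 10 points or more, against 2.10% over the other autosomes, and 76 of the 87 lay in clusters. The converse held in 3 bins (0.584%), against 0.936%. These were chr19:11800001-11900000 (67.6% and 57.4%), chr19:34900001-35000000 (28.1% and 17.0%) and chr19:30500001-30600000 (21% and 10.98%), all outside the clusters, with ESC H3K4me3 at 39.8%, 27.4% and 10.3%. When each list was scaled by its own mean on the other autosomes and a ratio of at least 2 was asked for, with the higher list at 10% or more, 7.98% of the bins were higher in ESC and 17.3% in iPSC, against 3.56% and 2.17% over the other autosomes. The iPSC list of H3K27me3 held 158859 peaks and the ESC list 80633. With the longer list trimmed to as many peaks as the shorter, 3.31% and 9.34% of the bins were higher in ESC and in iPSC, against 1.59% and 1.26%. H3K4me3 was at least 5 points higher in ESC in 11 bins (2.14%), against 0.232%, and higher in iPSC in 0 bins, against 0.543%. Of the 11, 9 lay in clusters, and most of these 9 lay in the stretch chosen by its iPSC H3K9me3. Those in the stretch were at chr19:22900001-23100000, chr19:23500001-23800000 and chr19:23900001-24000000. The rest of the 9 were at chr19:8300001-8500000 and chr19:45500001-45600000. The largest differences were at chr19:23000001-23100000 (11.96% and 2.33%) and chr19:22900001-23000000 (11.5% and 3.77%), in the stretch, and at chr19:8400001-8500000 (13.0% and 4.46%), off it. At chr19:8400001-8500000 H3K9me3 was close in both lists, 60.8% and 61.9%, and H3K27me3 was 0% and 27.6%.

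H3K27ac was higher in the longer ESC list, in 467 of the 514 bins, with 5 higher in iPSC. The share of such bins on the other autosomes is not given here. Mean coverage there was also higher in ESC, 4.01% against 2.10%, so this direction is not particular to chromosome 19. Inside the clusters of chromosome 19 H3K27ac covered 1.26% in ESC and 0.479% in iPSC, and outside 6.27% and 2.59%. It was at least 5 points higher in ESC in 105 bins (20.4%), against 6.09% over the other autosomes, and in 0 bins higher in iPSC, against 0.00393%. Of the 105, 1 lay in a cluster, where the median ESC level of a bin was 0.862%, so that few bins there could be called. The largest differences were at chr19:4800001-4900000 (36.8% and 12.1%), chr19:1900001-2000000 (19.2% and 4.27%) and chr19:3800001-3900000 (18.2% and 3.76%), where H3K4me3 was alike, 9.41% and 9.55%, 5.12% and 5.35%, and 6.78% and 6.10%. The ESC list of H3K27ac held 387478 peaks and the iPSC list 221803. With the longer list reduced to the strongest peaks, as many as in the shorter, 4.28% of the bins were higher in ESC, against 1.03% over the other autosomes. Scaled as above, with a limit of 5%, 6.61% were, against 2.02%.

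In the clusters the Jaccard index of the lists, defined below, was higher than outside for H3K9me3, lower for H3K4me3 and H3K27me3, and alike for H3K27ac. Since H3K9me3 of the same lists chose the clusters, its higher index there follows in part from the choice and is a description. Of the ESC H3K9me3 regions in clusters, 87.5% (95% Wilson interval 86.2 to 88.7) shared at least 1 bp with an iPSC region, and 55.9% (54.4 to 57.5) outside. Of the iPSC regions 79.3% (77.8 to 80.7) and 79.6% (78.1 to 81.0) did. A region in a cluster also meets more covered sequence in the other list. The Jaccard index (shared base pairs as a share of the base pairs that at least 1 of the lists covers) was 59.0% for H3K9me3 on chromosome 19, the highest of the 20 autosomes, against 49.9% ± 4.24. It was 64.9% in the clusters and 49.1% outside. For H3K4me3 the index was 68.3%, again the highest, against 57.7% ± 2.71, with 50.3% in the clusters and 70.2% outside. For H3K27me3 it was 22.6%, rank 5 of 20, against 20.7% ± 3.75, with 2.67% in the clusters and 35.7% outside. The unlike coverage of the clusters, 1.08% in ESC and 21.5% in iPSC, limits that index. In the clusters 3.95% of the iPSC H3K27me3 regions met an ESC region, while 68.2% of the 151 ESC regions met an iPSC region. For H3K27ac the index was 32.6%, rank 14 of 20, and was 31.9% in the clusters and 32.6% outside.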

How the data were processed

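Per the labels, chromatin immunoprecipitation and sequencing gave 60 libraries in 10 groups, among them 12 inputs. The submitters' processing notes name deepTools, MACS2, Picard and SAMtools 1.10, with no role. No source used here gives the aligner, build, thresholds or the way libraries were combined. Each deposited list gives for every peak a fold enrichment (a ratio) and a −log10 q, both from the authors' peak caller. In the deposited files −log10 q started at 1.30 for H3K4me3 and H3K27ac (narrow peaks) and at 1.00 for H3K27me3 and H3K9me3 (broad peaks). No read counts were used, so depth is unknown.

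Overlapping peaks were merged, and coverage was counted with Python 3.11.15, numpy 2.4.6 and pandas 2.3.3 in 100 kb bins from position 1. Chromosome ends were taken as the furthest peak end. Regions lie in a cluster by their centre. The interval functions were tested on simulated data. The members, limits and regions were chosen with earlier results of these data known. The regions named are every cluster, the 3 bins with the largest difference in each direction among those called for each mark, and the 3 widest H3K4me3 domains inside and outside the clusters. The widest H3K9me3 domains, the 500 kb flanks and the sections of the longest cluster were added after the data were examined. Alternatives were firm peaks alone, lists trimmed to equal peak numbers, other bin sizes, richness limits, overlaps and joining distances, and the clusters without the stretch higher in iPSC. Wilson intervals are at 95%.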

Additional observations from a re-analysis of the deposited data

How the results depend on the processing

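With 1 list per cell type and mark, no library could be left out. No paired analysis was possible because no list names a replicate or line. Of 227 values recomputed under other settings, 154 stayed near the reported one (within 1.5 times, or within the Wilson interval of a share) and 73 moved; no ratio turned its direction. All 24 ratios of chromosome 19 to the other autosomes stayed within 1.5 times. The stretch higher in iPSC measured 1.5 or 1.6 Mb with every setting run. The cause of the shifts below was not tested.

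With a richness limit of 40% there were 7 clusters of 6.8 Mb, and 1.22% of the other autosomes were in clusters (4.58% with 15%, 1.07% with clusters drawn from ESC alone). With adjacent bins alone and any length there were 24 clusters. Ratios inside to outside at the 40% limit were 0.267 (ESC) and 0.147 (iPSC) for H3K4me3, 0.0940 for iPSC H3K27ac and 0.113 for ESC H3K27me3. The latter was 0.101 with clusters drawn from ESC alone and 0.102 without the stretch, which was chosen after seeing the data.

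Percent of bins called: H3K27ac higher in ESC 6.61% scaled by the other autosomes, 13.4% with firm peaks, 4.28% with lists trimmed to equal numbers; H3K27me3 higher in ESC 7.98% scaled, 3.31% trimmed, 1.85% in bins of 50 kb and 0% in bins of 200 kb, and higher in iPSC 9.34% trimmed. H3K4me3 was higher in iPSC in 0.195% with firm peaks or trimmed lists and 0.389% in bins of 50 kb, and higher in ESC in 3.70% in bins of 50 kb. H3K9me3 was higher in ESC in 1.17% in bins of 200 kb.

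Shares in common (ESC, iPSC), where at least 50% of a region had to be covered, were 65.5% and 78.5% for H3K4me3, 30.2% and 84.4% for H3K27ac, 36.5% and 18.6% for H3K27me3, and 58.7% and 71.1% for H3K9me3. With firm peaks they were 72.0% and 83.1% for H3K4me3, 32.8% for ESC H3K27ac, 21.8% for iPSC H3K27me3 and 81.9% for iPSC H3K9me3. With trimmed lists they were 51.6% and 71.1% for H3K27ac, 32.6% and 28.4% for H3K27me3, and 79.2% and 69.9% for H3K9me3.

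H3K4me3 domains inside clusters numbered 54 with limits of 10 and 3, 227 from 1 kb (1819 outside) and 31 at the 40% richness limit. With limits of 10 and 3, H3K9me3 lay on 14.8% (ESC) and 24.1% (iPSC) inside and 10.01% and 6.06% outside. H3K27ac lay on 61.1% and 48.1% inside and 49.9% and 31.0% outside (the order turns in both lists). Bivalent shares at these limits were 16.7% (ESC) and 20.4% (iPSC) inside, close to each other, and 34.5% and 31.5% outside. From 1 kb, H3K27ac lay on 60.4% and 40.8% outside and on 32.6% inside in iPSC, and bivalent shares were 31.2% and 34.2% outside and 46.7% inside in iPSC. At the 40% richness limit, iPSC H3K9me3 lay on 77.4% inside and 67.7% were bivalent.

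H3K9me3 domains per Mb of cluster (36.8 in ESC and 27.1 in iPSC when joined within 3 kb) were 257 and 299 with overlapping peaks alone joined, which turns their order, with medians of 0.912 and 0.943 kb, and 10.2 and 6.38 when joined within 10 kb, with medians of 31.5 and 52.1 kb.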
